A study of Mus musculus with 12 samples.

Results

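Transcript levels of 10 AP-1 and immediate early genes were examined in RNA from 12 subcutaneous tumors grown from mTc11 mouse lung cancer cells. The 10 genes were chosen by name, with earlier results of these data known. They make up 10 of the 15687 genes in the table: the Fos family (*Fos*, *Fosb*, *Fosl1* and *Fosl2*), the Jun family (*Jun*, *Junb* and *Jund*), *Atf3*, *Egr1* and *Ier3*. The CTL group held 6 tumors from cells that carried a control shRNA (shControl), and the *Filip1l*-knockdown group held 6 tumors from cells that carried an shRNA against *Filip1l* (Filip1l KD). Both groups used mTc11 clones, and for both 1000000 cells in growth factor-reduced Matrigel were placed under the skin of 8-week-old male C57BL6/J mice, with tumors frozen on day 24. The clones were puromycin-selected mixed populations after lentiviral delivery, and which of the study's shRNA targets the sequenced tumors carried is not given in the sources used here. Other differences between the injected cell populations cannot be told apart from the *Filip1l* knockdown. The paper reports greater growth and considerable central necrosis of knockdown tumors. The part of these differences in the results below was not tested. The tumors grew under the skin and not in the lung, and bulk tissue was sequenced, so host cells are part of each sample. All values below are normalized counts, that is, reads on a gene divided by the tumor's size factor, which can be compared between tumors for the same gene.

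AP-1 is a dimer of basic leucine zipper (bZIP) proteins. Fos proteins cannot pair with themselves and bind DNA only with a partner such as a Jun protein, whereas Jun proteins also pair with each other, and ATF3 can pair with itself or with Jun proteins. *Fos*, *Fosb*, *Jun*, *Junb* and *Egr1* are classic immediate early genes, transcribed within minutes of growth factor or stress signals without new protein synthesis, and much of that signal runs through RAS and the MAP kinases ERK, JNK and p38. *Fosl1* (encoding FRA-1) is well known as an output of sustained RAS to ERK signaling in carcinoma cells, and JUNB and JUND can act against JUN at some promoters.

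The knockdown and the makeup of the tumors were examined first. Marker counts use the limma test described below, by which 21.1% of all genes were higher and 20.7% lower. Counts near these shares do not set a cell type apart from other genes. *Filip1l* itself averaged 2311 ± 211 normalized counts in the CTL group and 1924 ± 165 in the knockdown group (± SD, 6 tumors each), which differ by -0.26 on the log2 scale (limma adjusted p = 0.00998). This is a small drop, to 0.833 of the CTL level. The groups overlapped, with a lowest CTL value of 1983 and a highest knockdown value of 2184. The paper reports lower FILIP1L protein staining in knockdown tumors, which transcript levels do not measure. The tumors had between 17834745 and 32419578 reads on listed genes. Epithelial genes were abundant in both groups, with 5 of 6 markers higher in *Filip1l*-knockdown tumors (sum 135399.7 to 176029 in CTL against 189079 to 352751). Lung epithelial markers differed widely in level. The surfactant gene *Sftpc* was listed at 0 in at least 1 tumor of each group and did not exceed 60.5 normalized counts. *Sftpd*, another surfactant gene, had medians of 1914 in CTL and 1964 in *Filip1l*-knockdown tumors. In the same order the medians were 252 and 502 for *Napsa*, 22.0 and 156 for *Sftpb*, 105 and 27.1 for *Foxj1* and 14.5 and 22.7 for *Nkx2-1*. Markers of some host cell types also differed between the groups. All 6 neutrophil markers were higher in *Filip1l*-knockdown tumors, and their sum was 305 to 380 normalized counts in CTL tumors against 767 to 1223. For skeletal muscle, 7 of 8 markers were higher (sum 2099 to 10591 against 4441 to 83201), and 4 of 6 were higher for endothelium (2517 to 3156 against 3071 to 4867) and 4 of 5 for red blood cells (203 to 599 against 774 to 1585). Of 6 fibroblast markers, 2 were lower (sum 159034 to 258613 against 74138 to 250941). No marker of T cells passed the test, and 1 of 8 macrophage markers did. Of the adipocyte markers 2 of 3 were higher, of the lung epithelial markers 2 of 6 were higher and 1 lower, and of the skin epidermis markers 2 of 4 were lower. The part of these cells in the results below was not tested, and in bulk tumor RNA fewer cells of a type and less RNA per cell cannot be told apart. *Filip1l*-knockdown replicate 1 stood apart from its group in fibroblast genes and in the macrophage sum (65659.8 against a group median of 28716). *Lyz2* was the largest gene of that sum, with up to 40990 normalized counts in the group. The highest *C1qa* and *C1qc* values of the group lay below the highest CTL values, and those of the other macrophage markers lay above. Without *Filip1l*-knockdown replicate 1 the same number of members, 6, passed the test described next.

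Of the 10 members, 6 differed between the groups, and they did not move in 1 direction. *Fos*, *Atf3*, *Fosl2* and *Jund* rose in *Filip1l*-knockdown tumors, *Fosl1* and *Junb* fell, and *Jun*, *Fosb*, *Egr1* and *Ier3* did not pass the test. The test was limma on log2(normalized count + 1) over all 15687 genes, with a Benjamini-Hochberg adjusted p under 0.05. Over all genes tested 41.9% passed it, 21.1% higher and 20.7% lower, so 6 of 10 has to be read against a background of many changed genes. With an absolute log2 fold change over 1 as well, 3 members passed, against 10.2% of all genes. *Fos* and *Atf3* were higher by this rule, as were 6.20% of all genes, and *Fosl1* was lower, as were 3.97%. The 2 groups did not overlap in 4 members (*Fos*, *Fosl1*, *Fosl2* and *Atf3*), against 21.5% of all genes. The median log2 fold change was 0.12 over the members and 0.0078 over all genes.

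**Figure D1:**
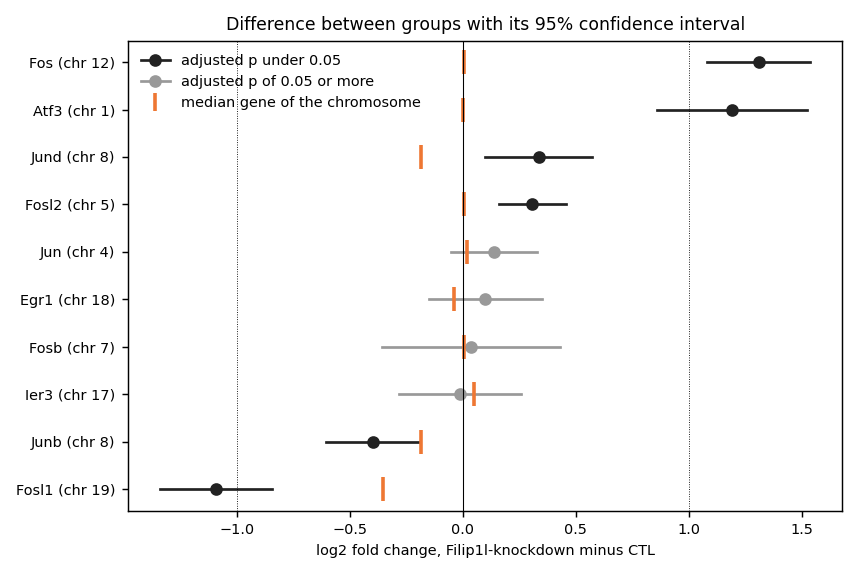
Log2 fold change (*Filip1l*-knockdown minus CTL) of each member on the x axis, with its 95% confidence interval as a line. Black marks an adjusted p under 0.05, grey one of 0.05 or more, the orange ticks mark the median gene of the member's chromosome, and dotted lines stand at log2 fold changes of -1 and 1. *Fos* and *Atf3* lie beyond 1, *Fosl1* beyond -1, and the intervals of *Jun*, *Egr1*, *Fosb* and *Ier3* cross 0.

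*Fos*, the prototype immediate early gene, showed the largest change among the members. *Fos* (ENSMUSG00000021250, chromosome 12 from 85473890 to 85477273, GRCm38) had a lowest value of 1133, a median of 1189 and a highest value of 1534 normalized counts in CTL tumors. In *Filip1l*-knockdown tumors *Fos* had 2619, 3015 and 4071 normalized counts. Every *Filip1l*-knockdown tumor therefore stood above every CTL tumor. *Fos* averaged 1253 ± 156 normalized counts in CTL and 3121 ± 531 in the knockdown group (SD, n = 6 each), which is 2.48-fold higher. The log2 fold change of *Fos* was 1.31 (standard error 0.11, 95% confidence interval 1.08 to 1.54, limma adjusted p = 6.13e-07). An exact two-sided permutation test of *Fos* over the 924 arrangements of the tumors gave p = 0.00216, the smallest value that 6 against 6 tumors can give.

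*Fosl1* moved in the opposite direction to *Fos*. *Fosl1* (ENSMUSG00000024912, chromosome 19 from 5447547 to 5455946) had a lowest value of 635, a median of 836 and a highest value of 964 normalized counts in CTL tumors. In *Filip1l*-knockdown tumors it had 307, 390.0 and 449.7 normalized counts, so the groups did not overlap. The mean of *Fosl1* was 830.2 ± 127 in CTL and 388 ± 51.6 in the knockdown group (SD, n = 6 each). The log2 fold change of *Fosl1* was -1.09 (95% confidence interval -1.34 to -0.84, limma adjusted p = 5.5e-06, exact permutation p = 0.00216). The median gene of chromosome 19 differed by -0.35 on the log2 scale, and with the chromosome medians removed *Fosl1* differed by -0.74 (adjusted p = 0.000173), which no longer passes a fold change of 1. *Fosl1* shares 1163 of its 2033 exon bases with *Ccdc85b*, annotated on the opposite strand. No strand setting is stated for these libraries, so reads of the shared stretch cannot be told apart. *Ccdc85b* fell from 1139.9 ± 140.2 to 775 ± 70.1 normalized counts (± SD, 6 tumors a group), a difference of -0.55 on the log2 scale (limma adjusted p = 0.000151).

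The other Fos family members changed little in comparison. *Fosl2* (encoding FRA-2) ranged from 2344 normalized counts over a median of 2713 to 3028 in CTL tumors, and from 3053 over 3350.2 to 3538 in *Filip1l*-knockdown tumors. The groups of *Fosl2* did not overlap, although the highest CTL and the lowest *Filip1l*-knockdown tumor were close. The log2 fold change of *Fosl2* was 0.31 (95% confidence interval 0.16 to 0.46, limma adjusted p = 0.00261, exact permutation p = 0.00216). *Fosb*, a close relative of *Fos* that often shares its inducers, ran from 399 over a median of 503 to 724 normalized counts in the CTL group and from 327 over 556 to 713 in *Filip1l*-knockdown tumors. The *Fosb* groups overlapped almost fully. Its log2 fold change was 0.036 (limma adjusted p = 0.898), and the 95% confidence interval of -0.36 to 0.43 does not reach the change of *Fos*.

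**Figure D2:**
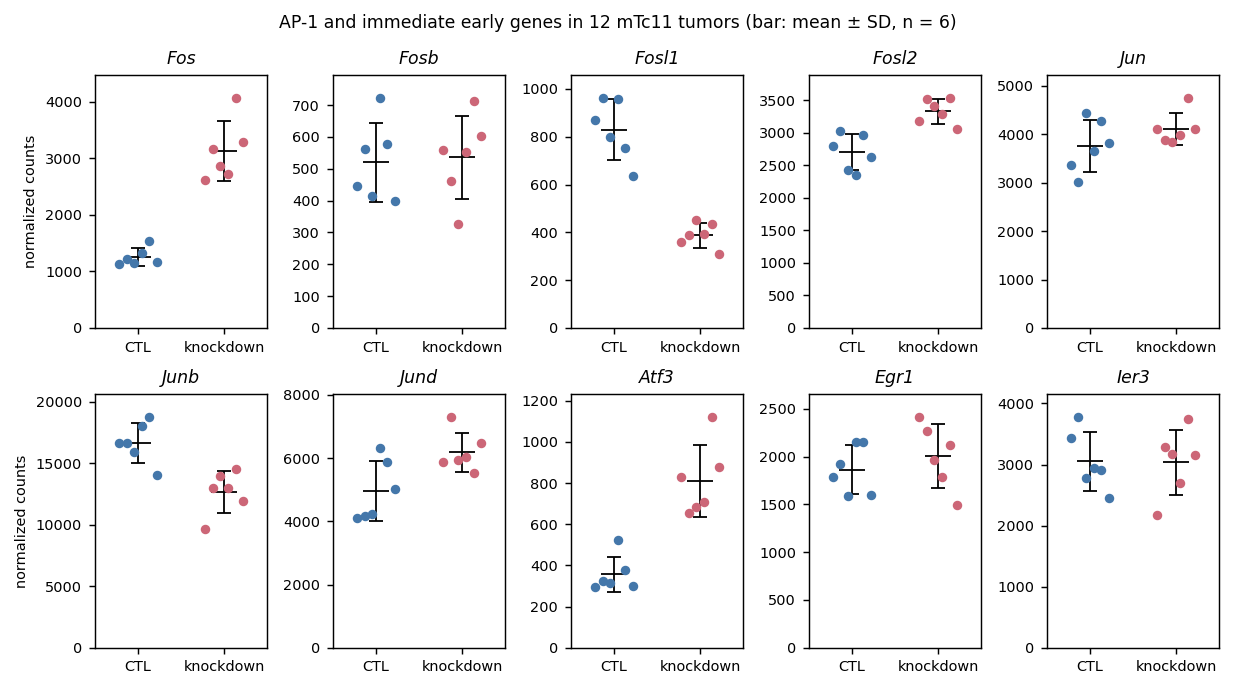
Normalized counts (y axis, starting at 0) of the 10 members in each of the 6 CTL tumors (blue) and 6 *Filip1l*-knockdown tumors (red), with the mean and SD in black. Points of a group are spread sideways in replicate order. *Fos*, *Fosl1*, *Fosl2* and *Atf3* show no overlap between the groups, and *Fosb*, *Egr1* and *Ier3* overlap throughout.

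Within the Jun family, *Junb* fell, *Jund* rose and *Jun* did not pass the test. *Junb* ranged from 14051 over a median of 16630.3 to 18745 normalized counts in CTL tumors. In *Filip1l*-knockdown tumors *Junb* ran from 9676 over 12996 to 14582 normalized counts, so the groups met only at the lowest CTL tumor (replicate 6) and the highest *Filip1l*-knockdown tumor (replicate 5). The log2 fold change of *Junb* was -0.40 (95% confidence interval -0.61 to -0.19, limma adjusted p = 0.00428, exact permutation p = 0.00433). *Junb* lies on chromosome 8, whose median gene differed by -0.19 on the log2 scale. With the chromosome medians removed the difference of *Junb* was -0.21 (adjusted p = 0.0975), and the gene no longer passed. *Junb* also shares 173 of its 2301 exon bases with *Prdx2* on the opposite strand, which fell by 0.30 on the log2 scale (limma adjusted p = 0.0107).

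*Jund*, a Jun family gene usually expressed at a steady level, lies on chromosome 8 too but moved upward. It ranged from 4119 over a median of 4626 to 6313 normalized counts in the CTL group and from 5514 over 5981 to 7288 in *Filip1l*-knockdown tumors. CTL replicates 4 and 5 reached into the range of the *Filip1l*-knockdown group, and the other 4 CTL tumors lay below it. The log2 fold change of *Jund* was 0.33 (95% confidence interval 0.10 to 0.57, limma adjusted p = 0.0254, exact permutation p = 0.0303). Without CTL replicate 1, 2 or 3 or *Filip1l*-knockdown replicate 2 the adjusted p of *Jund* was 0.0608, 0.0590, 0.0544 or 0.0599. With the chromosome medians removed the difference of *Jund* was 0.52 (adjusted p = 0.00191). *Jund* shares 877 of its 1668 exon bases with the antisense gene *Gm11175*, which was not analysed here.

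*Jun*, the founding partner of *Fos*, ranged from 3014 over a median of 3734 to 4438 normalized counts in the CTL group and from 3841 over 4046 to 4755 in *Filip1l*-knockdown tumors. All 6 *Filip1l*-knockdown tumors were above the CTL median, but CTL replicates 3 and 5 were as high. For *Jun* the log2 fold change was 0.14 (95% confidence interval -0.05 to 0.33, limma adjusted p = 0.234, exact permutation p = 0.188). Its antisense neighbor *Junos* shares 232 of the 3189 exon bases of *Jun* and had a log2 fold change of 0.21 (limma adjusted p = 0.655).

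*Atf3*, a stress-inducible bZIP gene that is also an immediate early gene, rose nearly as much as *Fos*. *Atf3* (ENSMUSG00000026628, chromosome 1 from 191170296 to 191218039) ranged from 293 over a median of 321 to 522 normalized counts in CTL tumors. In *Filip1l*-knockdown tumors it ran from 653 over 767 to 1119, so every *Filip1l*-knockdown tumor exceeded every CTL tumor. CTL replicate 4 was the high value in its group. *Atf3* averaged 356 ± 86.7 and 811 ± 174 normalized counts (SD, n = 6 each), 2.28-fold higher, and the log2 fold change was 1.19 (95% confidence interval 0.86 to 1.52, limma adjusted p = 3.45e-05, exact permutation p = 0.00216).

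*Egr1* and *Ier3* did not pass the test. *Egr1*, a zinc finger immediate early gene that responds to the same serum and ERK signals as *Fos*, ranged from 1584 over a median of 1851 to 2153 normalized counts in the CTL group and from 1492 over 2041 to 2409 in *Filip1l*-knockdown tumors. The highest and the lowest *Egr1* value of all tumors both belonged to the *Filip1l*-knockdown group, in replicates 1 and 6. *Egr1* had a log2 fold change of 0.10 (95% confidence interval -0.15 to 0.35, limma adjusted p = 0.529, exact permutation p = 0.452). *Ier3*, a stress- and ERK-induced gene tied to cell survival, ran from 2456 over 2929 to 3773 in CTL and from 2176 over 3161 to 3738 in *Filip1l*-knockdown tumors. Its log2 fold change was -0.013 (95% confidence interval -0.28 to 0.26, limma adjusted p = 0.948), so a change of *Ier3* of the size seen in *Fos* or *Atf3* lies outside its interval.

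Promoter sequences are shown for *Fos*, *Atf3* and *Junb*, the member that rose most, the other member that rose by more than 1 on the log2 scale and the most abundant member, which fell. RefSeq windows on GRCm38.p6 that span 250 bases before and 50 after the start were matched for 8 of the 10 members (not *Egr1* and *Fosl1*). The 250 bases before the start are printed 5′ to 3′ on the gene's strand, and capitals mark TGACG (the core of a cAMP response element), GGGCGG (known as a GC box) or TATAAA (the core promoter box of that name) on either strand. The windows are chr12:85473640-85473889 on the + strand for *Fos*, chr1:191183334-191183583 on the - strand for *Atf3* and chr8:84978749-84978998 on the - strand for *Junb*. The start used for *Atf3* lies within the gene as GENCODE annotates it, and the start used for *Junb* lies upstream of its GENCODE start at 84978718.
Fos: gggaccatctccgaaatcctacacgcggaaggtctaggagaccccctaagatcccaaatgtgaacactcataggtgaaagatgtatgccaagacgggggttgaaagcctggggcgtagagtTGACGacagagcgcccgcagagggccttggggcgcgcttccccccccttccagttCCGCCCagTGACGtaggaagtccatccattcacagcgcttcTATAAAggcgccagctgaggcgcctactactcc
Atf3: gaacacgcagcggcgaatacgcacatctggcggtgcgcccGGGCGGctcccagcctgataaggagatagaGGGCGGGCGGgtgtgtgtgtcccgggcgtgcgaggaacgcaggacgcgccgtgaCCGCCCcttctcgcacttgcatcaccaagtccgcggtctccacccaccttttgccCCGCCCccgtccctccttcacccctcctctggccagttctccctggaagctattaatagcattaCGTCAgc
Junb: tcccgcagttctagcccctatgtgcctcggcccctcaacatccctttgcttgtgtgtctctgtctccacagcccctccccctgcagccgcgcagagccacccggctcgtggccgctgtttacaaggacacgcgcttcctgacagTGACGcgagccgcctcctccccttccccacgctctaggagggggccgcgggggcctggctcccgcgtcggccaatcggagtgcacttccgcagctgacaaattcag
TGACG was found in all 3 of these windows and in 4 of the 8 members (*Atf3*, *Fos*, *Fosb* and *Junb*), against 20.8% of 32851 windows. In *Fos* it stood at positions -129 to -125 and -66 to -62 from the start, with a GC box at -74 to -69 and a TATA box at -33 to -28. In *Atf3* it stood at -7 to -3, after 5 GC boxes, of which 2 overlap in the run from -180 to -171. In *Junb* it stood at -106 to -102. The full AP-1 site TGACTCA (5.20% of windows), the full cAMP response element TGACGTCA (1.79%) and a CArG box, the letters that serum response factor binds (1.63%), were in none of the 8 member windows. TGACG is part of TGACGTCA. TGACNTCA, which includes every TGACGTCA, was found in *Jun* at -45 to -38, against 8.83% of windows. GCGGGGGCG, bound by EGR proteins, was found in *Fosb* and *Fosl2* (2.91%), GGGCGG in 6 of 8 (35.7%), CCAAT in 4 of 8 (37.4%) and TATAAA in *Fos* and *Junb* (13.6%). In *Junb* TATAAA stood at 1 to 6, after the start used, and is therefore not among the printed bases. GCGGGGGCG and GGGCGG share bases where both occur. TGACG was thus present in members that rose (*Fos* and *Atf3*), fell (*Junb*) and did not pass the test (*Fosb*). These are matches of letters in a short window, and *Fos* is known for a serum response element farther upstream than the window reaches.

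Levels were compared between genes per kilobase of exon. The length was the union of all annotated exon bases of a gene, whether or not the tumors used them. For *Fosl1* and *Jund* much of that length is shared with a gene on the opposite strand, as given above. The order of the genes and the family shares below are therefore approximate. In CTL tumors *Junb* was the most abundant member with 7242 ± 717 normalized counts per kb (SD, n = 6), followed by *Jund* with 2972 ± 571 and *Ier3* with 2697 ± 421, which differed by less than their spread. *Jun* had 1178 ± 169 and *Fos* 533 ± 66.3 per kb. *Egr1* (416 ± 56.9) and *Fosl1* (408 ± 62.5) could not be separated, and *Fosl2* (279 ± 28.8), *Atf3* (165 ± 40.3) and *Fosb* (83.3 ± 19.98) came last. In *Filip1l*-knockdown tumors *Fos* stood at 1327 ± 226 per kb beside *Jun* at 1290 ± 104, within their spread of each other. *Fosl1* moved from place 7 to place 9 in this order with 191 ± 25.4 per kb, *Atf3* moved from place 9 to place 7 with 377 ± 81.0, and *Fosb* stayed last with 85.8 ± 21.0. Among all genes, the levels per kb of the members lay between percentile 41.0 for *Fosb* and percentile 98.9 for *Junb*.

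*Fos* held a larger share of the Fos family in *Filip1l*-knockdown tumors and *Fosl1* a smaller one. The summed level of the 4 Fos family genes was 1142 to 1422 normalized counts per kb in the CTL group and 1708 to 2424 in the *Filip1l*-knockdown group. *Fos* made up 37.1% to 45.9% of that sum in CTL tumors (median 40.6%) and 65.0% to 71.4% in *Filip1l*-knockdown tumors (median 67.1%). *Fosl1* made up 26.1% to 34.0% (median 33.3%) and 7.72% to 11.99% (median 9.99%). Neither share overlapped between the groups. Since shares of 1 sum depend on each other, the same data can be read as ratios. The ratio of *Fos* to *Fosl1* normalized counts was 1.26 to 2.03 in CTL and 6.37 to 10.7 in *Filip1l*-knockdown tumors, and that of *Fos* to *Fosb* was 1.84 to 2.91 and 4.69 to 8.78. These shares and ratios restate the levels above and were not tested separately.

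The Jun family sum overlapped between the groups, with 10314 to 13009 normalized counts per kb in CTL and 9017 to 11242 in *Filip1l*-knockdown tumors. *Junb* held the largest share in every tumor, 59.2% to 67.7% in CTL and 46.6% to 56.9% in *Filip1l*-knockdown tumors. *Jund* made up 22.97% to 29.65% and 29.69% to 39.1%, ranges that lay next to each other without overlap. The ratio of the Fos family sum to the Jun family sum was 0.109 to 0.131 in CTL and 0.169 to 0.218 in *Filip1l*-knockdown tumors, so Jun family transcripts remained in excess in all 12 tumors. The ratio of *Fos* to *Egr1*, both classic serum response genes, was 0.618 to 0.729 in the CTL group and 1.09 to 2.201 in the *Filip1l*-knockdown group, and that of *Atf3* to *Egr1* was 0.165 to 0.243 and 0.288 to 0.590.

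**Figure D3:**
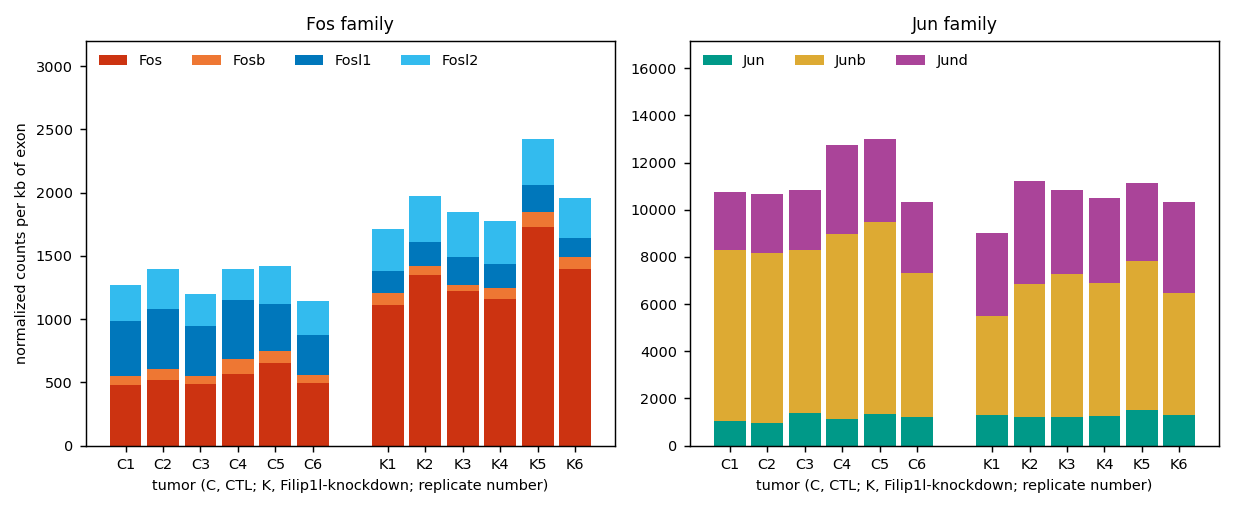
Stacked levels in normalized counts per kb of exon (y axis from 0, a different scale in each panel) of the Fos family (left) and Jun family (right) in each tumor, with CTL replicates C1 to C6 and *Filip1l*-knockdown replicates K1 to K6 on the x axis. The *Fos* segment is 37.1% to 45.9% of the Fos family bar in the CTL group and 65.0% to 71.4% in the *Filip1l*-knockdown group, while *Junb* is the largest Jun family segment throughout.

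Members varied among tumors of the same group. The coefficient of variation ran from 9.90% (*Junb*) to 24.4% (*Atf3*) in CTL tumors and from 5.73% (*Fosl2*) to 24.5% (*Fosb*) in *Filip1l*-knockdown tumors. *Filip1l*-knockdown replicate 5 had the highest value of its group in 7 of the 10 members (*Fos*, *Fosb*, *Fosl2*, *Jun*, *Junb*, *Atf3* and *Ier3*) and the lowest in *Jund*. Among CTL tumors, replicate 4 was highest in 4 members and replicate 6 lowest in 4. Of 18 relations of *Fos* to another member within a group of 6 tumors, 0 reached an adjusted p under 0.05 by an exact permutation test of Pearson's r (lowest adjusted p 0.318) and 2 an unadjusted one. These were *Egr1* in CTL tumors (r = 0.83, exact permutation p = 0.0319; rho = 0.77, p = 0.103) and *Ier3* in *Filip1l*-knockdown tumors (r = 0.85, exact permutation p = 0.0417; rho = 0.83, p = 0.0583). Without the 2 tumors farthest from the median of *Fos*, r was 0.63 and 0.76. Spearman's rho gave 0 relations at an adjusted p under 0.05 and 1 at an unadjusted one (*Atf3* in CTL tumors, rho = 0.89, exact permutation p = 0.0333). For rho the smallest two-sided permutation p with 6 tumors is 0.00278, too large for 1 relation alone to pass after adjustment over 18. The count of 0 therefore does not show that the members vary independently.

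The genes most like *Fos* across the 12 tumors, after the group means were removed, were named by Pearson's r of log2 values among the 12887 genes that averaged at least 50 normalized counts. They were *Smox* (r = 0.88), *Mkrn2* (r = 0.88), *Pam16* (r = 0.87), *Cux1* (r = 0.87) and *Dnttip1* (r = 0.86). These genes were picked as the highest of 12887 correlations over 12 tumors. The highest of so many can be large by chance alone, and whether these r values exceed chance was not tested. Of the members, *Atf3* was nearest at r = 0.66 and rank 371, followed by *Junb* at r = 0.65 and rank 418 and *Fosb* at r = 0.57 and rank 939. *Fosl1* had r = 0.096. These values are descriptions over 12 tumors whose libraries also differ in depth and cell makeup.

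Other bZIP genes that can join AP-1 dimers showed few differences. Of 12 on the list 11 were in the table, and 1 was higher (against 21.1% of all genes), 1 lower (against 20.7%) and 9 did not pass the test. *Jdp2*, a bZIP partner of Jun proteins that represses AP-1, rose from 539 ± 54.1 to 707 ± 122 normalized counts (± SD, 6 tumors a group), a difference of 0.38 on the log2 scale (limma adjusted p = 0.0118). *Atf7* fell from 1866 ± 106 to 1509.8 ± 31.1 normalized counts, by 0.30 on the log2 scale (limma adjusted p = 0.000192). *Batf*, mainly an immune cell bZIP gene, had a log2 fold change of 0.37 (limma adjusted p = 0.361). The median log2 fold change of the list was -0.087. Without *Filip1l*-knockdown replicate 1, 4 genes of this list passed the test.

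Other immediate early genes passed the test in about the share that all genes did. Of 34 on the list 32 were in the table, with 8 higher (against 21.1% of all genes), 6 lower (against 20.7%) and 18 not passing, and a median log2 fold change of 0.078. Among those that rose were *Btg2*, an antiproliferative gene (log2 fold change 0.71, limma adjusted p = 1.95e-05), the transcription factor gene *Klf4* (0.48, adjusted p = 0.000827) and *Csrnp1* (0.48, adjusted p = 0.0016). Among those that fell were *Egr3* (log2 fold change -1.17, limma adjusted p = 0.00172), the prostaglandin synthase gene *Ptgs2* (-1.03, adjusted p = 0.0155) and *Ier5l* (-0.87, adjusted p = 2.39e-06). The EGR family thus held a member that fell, *Egr3*, from 205 ± 78.0 to 86.3 ± 18.4 normalized counts, beside *Egr1* above and *Egr2*, which had a log2 fold change of -0.28 (adjusted p = 0.185). Without *Filip1l*-knockdown replicate 1, *Egr2* differed by -0.43 (adjusted p = 0.00501). *Ier2*, on chromosome 8, had a log2 fold change of 0.095 (adjusted p = 0.330) and of 0.28 with the chromosome medians removed (adjusted p = 0.00773).

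Genes of the MAP kinase cascade and of the serum response, which act upstream of *Fos* and *Egr1*, showed 6 higher (against 21.1% of all genes), 6 lower (against 20.7%) and 11 not passing among 23 of 24 in the table, with a median log2 fold change of 0.013. *Rps6ka1*, encoding the ERK-activated kinase RSK1, rose from 2539 ± 385 to 5316 ± 834 normalized counts (± SD, 6 tumors a group), a difference of 1.06 on the log2 scale (limma adjusted p = 8.47e-06). *Mapk8*, encoding the JUN kinase JNK1, rose by 0.61 on the log2 scale (adjusted p = 2.77e-05). *Mapk8* lies on chromosome 14, whose median gene was higher by 0.39, and its difference was 0.23 with the chromosome medians removed (adjusted p = 0.0359). *Elk3*, a ternary complex factor that binds with serum response factor, fell by 0.52 (adjusted p = 8.04e-06), and *Mrtfa*, encoding another cofactor of serum response factor, fell by 0.29 (adjusted p = 0.00198). *Map2k7*, encoding a kinase that activates JNK, fell by 0.34 (adjusted p = 0.000214), and on chromosome 8 its difference was -0.15 with the chromosome medians removed (adjusted p = 0.0404).

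Feedback inhibitors of MAP kinase signaling, many of them induced by ERK activity, showed 3 higher (against 21.1% of all genes), 7 lower (against 20.7%) and 7 not passing of 17 and a median log2 fold change of -0.13. *Spry1*, encoding a Sprouty inhibitor of receptor signaling to RAS, fell from 1622 ± 188 to 834 ± 48.1 normalized counts (± SD, 6 tumors a group), a difference of -0.95 on the log2 scale (limma adjusted p = 5.36e-07). *Spry4* fell by 0.88 on the log2 scale (adjusted p = 1.6e-05). *Dusp5*, encoding a nuclear ERK phosphatase, fell by 0.58 (adjusted p = 0.00733), and on chromosome 19 its difference was -0.23 with the chromosome medians removed (adjusted p = 0.261). *Dusp14* rose by 1.05 (adjusted p = 0.000235) and *Dusp8*, encoding a JNK and p38 phosphatase, by 0.66 (adjusted p = 0.00638). *Dusp6*, encoding the cytoplasmic ERK phosphatase, had a log2 fold change of -0.15 (adjusted p = 0.127), and without CTL replicate 3 it differed by -0.20 (adjusted p = 0.0261). *Dusp1*, itself an immediate early gene, rose by 0.40 (adjusted p = 0.0216), with an adjusted p of 0.0513 without CTL replicate 6, 0.0505 without *Filip1l*-knockdown replicate 5 and 0.0627 after trends with GC content and length were removed.

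**Figure D4:**
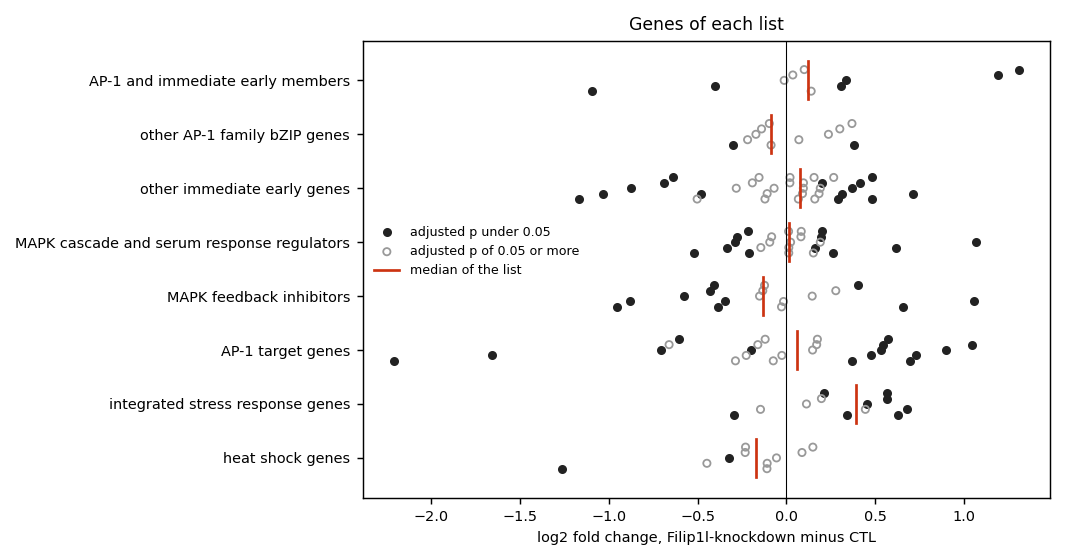
Log2 fold change (*Filip1l*-knockdown minus CTL, x axis) of each gene of 8 lists (y axis), as filled points for an adjusted p under 0.05 and open points otherwise, with the median of the list in red. Points of a list are offset vertically for legibility. Medians run from -0.17 for heat shock genes to 0.39 for integrated stress response genes, and every list but the heat shock genes holds filled points on both sides of 0.

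Genes known as AP-1 targets showed 9 higher (against 21.1% of all genes), 5 lower (against 20.7%, about the same share) and 10 not passing of 24 and a median log2 fold change of 0.060. *Il11*, a cytokine gene, fell from 242 ± 130.5 to 50.1 ± 23.3 normalized counts (± SD, 6 tumors a group), a difference of -2.21 on the log2 scale (limma adjusted p = 0.00161). The chromatin architecture genes *Hmga2* and *Hmga1* fell by 1.66 (adjusted p = 1.46e-05) and 0.71 (adjusted p = 1.97e-05) on the log2 scale. *Hk2*, encoding a glycolytic hexokinase, rose from 3488 ± 474 to 7219 ± 1162 normalized counts, or by 1.04 on the log2 scale (adjusted p = 9.43e-06). *Vegfa*, encoding an angiogenic growth factor that hypoxia also induces, rose by 0.73 (adjusted p = 4.33e-05). The 4 matrix metalloproteinase genes of the list did not pass the test, among them *Mmp3* with a log2 fold change of -0.16 (adjusted p = 0.640) and *Mmp13* with -0.29 (adjusted p = 0.299), both chosen after their values were seen.

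Genes of the integrated stress response, in which *Atf3* is a known target of ATF4, were mostly higher. Of 12, 7 were higher (against 21.1% of all genes), 1 was lower (against 20.7%) and 4 did not pass, and their median log2 fold change was 0.39. *Ddit3*, encoding CHOP, rose from 356 ± 55.6 to 584 ± 162 normalized counts (± SD, 6 tumors a group), a difference of 0.68 on the log2 scale (limma adjusted p = 0.00618). *Ddit4* rose by 0.63 (adjusted p = 0.00254) and *Asns*, encoding asparagine synthetase, by 0.57 (adjusted p = 0.00254) on the log2 scale. *Psat1*, an enzyme gene of serine synthesis on chromosome 19, fell by 0.29 (adjusted p = 0.00241), and with the chromosome medians removed its difference was 0.057 (adjusted p = 0.532). Heat shock genes, which encode chaperones induced by protein stress, were 0 higher (against 21.1% of all genes), 2 lower (against 20.7%, about the same share) and 8 not passing of 10, with a median log2 fold change of -0.17. *Hspb1* fell by 1.26 (adjusted p = 0.000163) and *Dnajb1* by 0.32 (adjusted p = 0.0327). The count of 2 was 1 without CTL replicate 2, 4 or 5 or *Filip1l*-knockdown replicate 1, 4 or 6, 4 without *Filip1l*-knockdown replicate 2 and 5 without replicate 3. *Hspa1a* and *Hspa1b*, the strongly inducible members of the list, had log2 fold changes of 0.15 (adjusted p = 0.720) and -0.11 (adjusted p = 0.767) and were named after their values were seen.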

How the data were processed

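RNA from 6 CTL and 6 *Filip1l*-knockdown tumors was sequenced by the authors after library preparation with a NEBNext Ultra II RNA kit, for which no strand setting is stated. Per the submitters' processing notes the tools were bcl2fastq 2.20, Trimmomatic 0.36, STAR 2.5.2b, featureCounts of Subread 1.5.2 and DESeq2, with build mm10. The deposited values are a normalized signal, that is, counts per gene that the authors divided by each tumor's size factor. They are not corrected for length, and gene-specific bias from GC content or length stays in them.

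All 12 tumors were grouped by their labels, which call them biological replicates. The cells were transduced and selected before injection, so the p-values measure spread between tumors and not between independently made knockdowns. The values of each tumor are whole multiples of 1 step (0.865 to 1.49 normalized counts), and with a tolerance of 0.01 reads 100% of the values came out whole. In 3 of the 12 tumors that step lies within 1% of 1. The recovered reads on listed genes were 17834745 to 32419578 per tumor, so counting error is small beside the spread between tumors for the members. Such figures cover counting error only.

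Tests used log2(normalized count + 1), with 1 as the pseudocount. A minimum mean of 5 normalized counts removed 0 genes. Groups were compared over 15687 genes with limma 3.58.1 (R 4.3.3), letting the variance follow the mean, and p-values were adjusted by the Benjamini-Hochberg method. A gene was called changed at an adjusted p under 0.05. A second threshold, an absolute log2 fold change over 1, is given where named. Single genes also have exact two-sided permutation tests over 924 arrangements. The members and gene lists were chosen with earlier results of these data known. Every member is named. Of each list, the 3 most raised and the 3 most lowered genes that passed and averaged at least 50 normalized counts are named, together with *Jdp2*, *Batf*, *Egr2*, *Egr3*, *Ier2*, *Dusp1* and *Dusp6*. *Map2k1*, also within that rule for the cascade list, is described only with the processing alternatives. Genes that overlap a member were added. Of the genes this rule would name, 1 is not reported here. Exon lengths, positions and overlaps were taken from GENCODE vM21 (GRCm38), which holds 15655 of the identifiers (99.8%). Older symbols of *Ccn1*, *Ccn2*, *Mrtfa* and *Mrtfb* were matched through RefSeq synonyms.

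The alternatives tried were a pseudocount of 0.5 or 8, a minimum mean of 20 or none, rescaling to the same 75th percentile or total, limma with no variance trend, the replicate number as a block, removal of chromosome medians, removal of GC content and length trends, and leaving out each tumor. Count tests on the recovered reads, edgeR 4.0.16 and DESeq2 1.42.0, were added after seeing the data. At an adjusted p under 0.05 they called 6626 and 6960 genes, against 6566 with limma. The steps were tested on simulated data. Python 3.11.15 with scipy 1.17.1 (permutation tests) and matplotlib 3.10.9 (figures) was used.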

Additional observations from a re-analysis of the deposited data

Results flagged for a closer look

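In each of the 10 members the highest and the lowest tumor of both groups were compared with the rest of their group, 20 groups of 6 tumors in all, by the gap to the nearest tumor over the whole range (Dixon's test, 95% level). A tumor stood far from the others in 2 of the 20 groups, and chance alone flags about 1 in 20 groups. *Jun* was high in *Filip1l*-knockdown replicate 5, with 4755 normalized counts and a gap of 0.711 of the range. *Atf3* was high in CTL replicate 4, with 522 normalized counts and a gap of 0.630 of the range.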

How the results depend on the processing

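The number of changed members (6) was 5 with the chromosome medians removed, 5 without CTL replicate 1, 2 or 3 or *Filip1l*-knockdown replicate 2, and 6 under the other alternatives. It was 6 with edgeR and with DESeq2 on recovered reads. Over the 12 alternatives that kept all tumors and the 12 fits that left out 1 tumor, the log2 fold changes of *Fos* (1.23 to 1.37), *Atf3* (1.09 to 1.31), *Fosl1* (-1.17 to -0.74) and *Fosl2* (0.27 to 0.37) kept their direction and an adjusted p under 0.05. *Fosb* was -0.0059 at the same total and ran from -0.055 to 0.17 with 1 tumor left out, and *Ier3* from -0.077 to 0.079, so neither has a direction here. *Psat1* turned to 0.057 with the chromosome medians removed, because the median of chromosome 19 was subtracted. *Map2k1* rose by 0.26 (limma adjusted p = 0.0300) but did not pass with GC content and length trends removed (0.22, adjusted p = 0.0663) or without CTL replicate 3 or 6 or *Filip1l*-knockdown replicate 2, 3, 5 or 6 (adjusted p up to 0.0687). *Dnajb1* did not pass with limma without a trend (adjusted p = 0.0532), with the chromosome medians removed (adjusted p = 0.373) or, with 1 tumor left out, in 7 of 12 fits (adjusted p up to 0.0729). Of the lists, the count of changed heat shock genes moved from 2 to 5 at the same total and to 1 without a trend. Of 1128 values of 47 named genes under an alternative, 1089 kept direction and side of the threshold, 25 no longer passed, 3 newly passed and 11 turned direction. Apart from the subtraction of chromosome medians, the cause of these moves was not tested.

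Correlations of same-numbered tumors after removal of group means ran from -0.269 to 0.0990, which gave no sign that replicate numbers pair the tumors. Differently numbered tumors were not compared. With the replicate number as a block 6 members and 1554 genes at both thresholds were called, against 6 and 1596 without it. With 6 tumors a group, relations between members had few points, and depth did not limit the members, whose lowest value was 293 normalized counts against a floor of 3 reads.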
